A study of Mus musculus with 2 samples.

Results

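Cajal-Retzius (CR) cells with RNA of *Grik1* are described here, as measured by single-cell RNA-sequencing in the mouse hippocampus at postnatal day 14. Of 1265 CR cells in 2 libraries, 173 were *Grik1*-positive (called *Grik1* cells below), 124 of 916 in the control and 49 of 349 in the knockout. The control library held the pooled cells of 4 *ΔNp73-Cre; Cic* flox/+*; tdT* mice (3 males and 1 female) and the knockout library those of 4 *ΔNp73-Cre; Cic* flox/flox*; tdT* littermates (2 males and 2 females). All mice therefore carried Cre under the *ΔNp73* promoter, a reporter that makes the red protein tdTomato in cells with Cre activity, and at least 1 floxed allele of *Cic*, the gene of the transcriptional repressor Capicua. The controls were conditional heterozygotes, not wild type. Live red cells were sorted after papain dissociation, which selects for cells in which Cre had acted. The purity of the sort was not tested. In the paper, the Capicua protein (CIC) was lost from most, but not all, red hippocampal CR cells of this knockout line at a later age. Each genotype was 1 library of pooled animals, so no difference between genotypes has a replicate check and no significance test was possible.

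CR cells are early-born glutamatergic neurons that lie in the molecular layers of the hippocampus, secrete the glycoprotein reelin, which steers the placement of neurons, and mostly die in the first postnatal weeks. *Grik1* encodes GluK1, a pore-forming subunit of kainate receptors, which are glutamate-gated ion channels found on both sides of synapses. These channels are tetramers of low-affinity subunits (*Grik1*, *Grik2*, *Grik3*) alone or with high-affinity subunits (*Grik4*, *Grik5*), and the auxiliary proteins encoded by *Neto1* and *Neto2* change their gating and place them at synapses.

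A barcode, the tag shared by the RNA of a droplet, counted as a CR cell when it held at least 2000 unique molecular identifiers (UMIs, each marking a captured RNA molecule), at most 8% mitochondrial UMIs and at least 5 *Reln* UMIs. Nuclear genes of oxidative phosphorylation (OXPHOS) also had to make up under 1.8% of its UMIs. A *Grik1* cell had in addition at least 1 *Grik1* UMI, no UMI of *Cck* (a neuropeptide gene) and under 2 UMIs of *Chst8* (a sulfotransferase) and *Alkal2* (a ligand of the receptor ALK) together. *Grik1*, *Cck*, *Chst8*, *Alkal2* and *Reln* thus chose the cells, and their values are a description only. The 1092 other CR cells fell into 386 with a *Cck* UMI, 103 with 2 or more UMIs of *Chst8* and *Alkal2*, and 603 with none of these markers at the set level, called unmarked below. Levels are UMIs summed over the cells of a group per 1000000 UMIs outside mitochondrial and ribosomal genes (CPM). Brackets give 95% exact intervals, binomial for shares and for the ratio of 2 Poisson counts for levels, which cover counting error only.

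*Grik1* cells made up 13.5% (11.4 to 15.9) of control and 14.0% (10.6 to 18.1) of knockout CR cells, shares that differed by less than their counting error. Most of them were chosen on few molecules. In the control, 54 cells held 1 *Grik1* UMI, 24 held 2 and 46 held 3 or more, and in the knockout the numbers were 21, 15 and 13. The median was 2 in both libraries and the highest was 26 in the control and 5 in the knockout. *Grik1* stood at 485.5 CPM in the control *Grik1* cells and 288 CPM in those of the knockout, a ratio of 0.59 (0.47 to 0.74). A further 42 control and 13 knockout CR cells had a *Grik1* UMI but were left out for *Cck*, of which 21 and 7 held exactly 1 *Cck* UMI, and 9 and 4 were left out for *Chst8* and *Alkal2*. At the OXPHOS limit the nearest *Grik1*-bearing barcodes lay at 1.71% inside and 1.88% outside in the control, and at 1.34% and 3.24% in the knockout. With every cell thinned to 2000 UMIs, the shares were 8.84% and 9.74%.

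The spread of *Grik1* over droplets was set beside these shares, because RNA free in the suspension can give a cell a UMI of a gene it does not express. Droplets of 20 to 100 UMIs, which hold free RNA, had a *Grik1* UMI in 0.169% of 29040 cases in the control (median 89 UMIs) and in 0.228% of 75813 in the knockout (median 44 UMIs). Were 5% of a CR cell's UMIs free RNA of this profile, 0.655% of control and 1.78% of knockout CR cells would hold a *Grik1* UMI. The 5% is an assumed share, which was not measured, so the part of free RNA in the *Grik1* UMIs was not tested. Per UMI, the droplets held *Grik1* at 23.4 (control) and 58.9 (knockout) CPM, beside 19.7 and 15.4 CPM in the other CR cells and 485.5 and 288 CPM in the *Grik1* cells. Barcodes under 5 *Reln* UMIs, the nearest to cells that should lack the gene, were too few to compare, with 0 of 8 (median 3157 UMIs) and 1 of 11 (median 3165 UMIs) holding *Grik1*.

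*Grik1* cells held RNA of CR cell markers outside the rule at shares near those of the other CR cells. *Trp73*, the transcription factor gene that defines hippocampal CR cells, had a UMI in 90.3% of *Grik1* cells of the control and 95.9% in the knockout, against 88.0% and 91.0% of the other CR cells. Droplets held *Trp73* at 823 and 854 CPM, above the 441 and 573 CPM of *Grik1* cells, and free RNA at the assumed 5% would alone give 20.4% and 22.7% of CR cells a UMI. *Ndnf*, which encodes a secreted neurotrophic factor, was detected in every *Grik1* cell of both libraries, and *Cacna2d2*, a calcium channel subunit gene, in 99.2% and 100%. *Lhx1*, a homeobox gene of CR cells, was found in 62.1% and 65.3%, and *Cxcr4*, the chemokine receptor gene used in their migration, in 62.9% and 65.3%. *Ebf2*, a transcription factor gene, had a UMI in 0 of 124 and 0 of 49 *Grik1* cells, which allows shares of cells with a UMI of up to 2.93% and 7.25%, beside 3.41% (2.26 to 4.92) and 2.00% (0.737 to 4.30) of the other CR cells, so the intervals overlapped. The calretinin gene *Calb2*, a classical CR cell marker, was found in 16.9% and 42.9% of *Grik1* cells and in 24.6% and 31.7% of the others.

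Markers of most other cell types could not be told apart from their level in the other CR cells, with microglia in the control as an exception. *Gad1* and *Gad2*, which make GABA, had 0 UMIs in the *Grik1* cells of both libraries, and 7 of 8 GABAergic markers in the control and 8 of 8 in the knockout were at 0 (2.6 and 0 CPM in sum, against 0.82 and 1.03 in the other cells). Astrocyte markers, led by the glutamate transporter gene *Slc1a2*, summed to 110 and 122 CPM, against 106 and 128 in the other cells. Endothelial and mural markers, led by *Rgs5*, summed to 118 and 128 CPM against 119 and 97.9. Precursors of oligodendrocytes gave 74.0 and 81.5 CPM (most of it *Cspg4*) against 64.4 and 82.0. Microglial markers, led by *P2ry12*, gave 22.1 and 32.0 CPM, beside 44.7 and 37.9 in the other cells. This microglial sum was lower in the control (0.494, 0.282 to 0.809) and within its interval in the knockout (0.844, 0.404 to 1.60). Markers of granule and pyramidal neurons summed to 24.7 and 26.2 CPM against 17.2 and 21.5. Depth was also near: the *Grik1* cells held a median of 6204.5 UMIs in the control (3012 to 13044) and 6754 in the knockout (3827 to 15872), against 6062.5 and 6400.5 in the others. Their median mitochondrial share was 3.42% and 4.51%, against 3.28% and 3.80%. By *Xist* and Y-linked genes, 25.8% of control and 57.1% of knockout *Grik1* cells had *Xist* alone, against 22.5% and 44.3% of the others, in pools with unequal numbers of females.

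Genes that differed between *Grik1* cells and other CR cells were ranked within each library and then read in the other library, which had no part in choosing them. Among 6249 genes with at least 200 UMIs, 182 (2.91%) were at least 1.5-fold higher and 388 (6.21%) at least 1.5-fold lower in the control *Grik1* cells. In the knockout, with fewer cells, 374 of 6250 (5.98%) were that much higher and 749 (12%) lower. The libraries shared 47 of the higher genes, 25.8% of the control's and 12.6% of the knockout's, and 130 of the lower genes, 33.5% and 17.4%. The median gene lay at −0.02 and −0.04 on the log2 scale, so the scaling left the bulk of genes level.

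The 12 genes most securely higher in the control *Grik1* cells summed to 2982 CPM in the knockout *Grik1* cells and 1536 CPM in the other knockout cells, a ratio of 1.94 (1.81 to 2.08). Of these, 11 had ratios above 1 in the knockout, 8 of them by at least 1.5-fold and 8 with intervals that left out 1, and *Nlgn1* was the exception. The 12 genes most securely lower in the control had ratios below 1 in the knockout in 12 of 12 cases, with 7 past 1.5-fold and a summed ratio of 0.555 (0.497 to 0.618). The intervals left out 1 for 8 of them and held it for *Arhgap26* (0.993), *Pcsk1*, *Htra1* and *Bag3*. Genes chosen in the knockout gave the same picture in the control. The 12 higher genes had ratios above 1 in 12 of 12 cases, all with intervals that left out 1 and 11 past 1.5-fold, at 2761 against 1295 CPM (2.13, 2.03 to 2.24). The 12 lower genes had ratios below 1 in 12 of 12 cases, 10 with intervals that left out 1 and 8 past 1.5-fold, at 1390 against 2598 CPM (0.535, 0.502 to 0.570). *Igf2*, *Lrrtm4*, *Pde1c*, *Unc5c*, *Kcnip1* and *Pde8b* were chosen in both libraries.

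**Figure D1:**
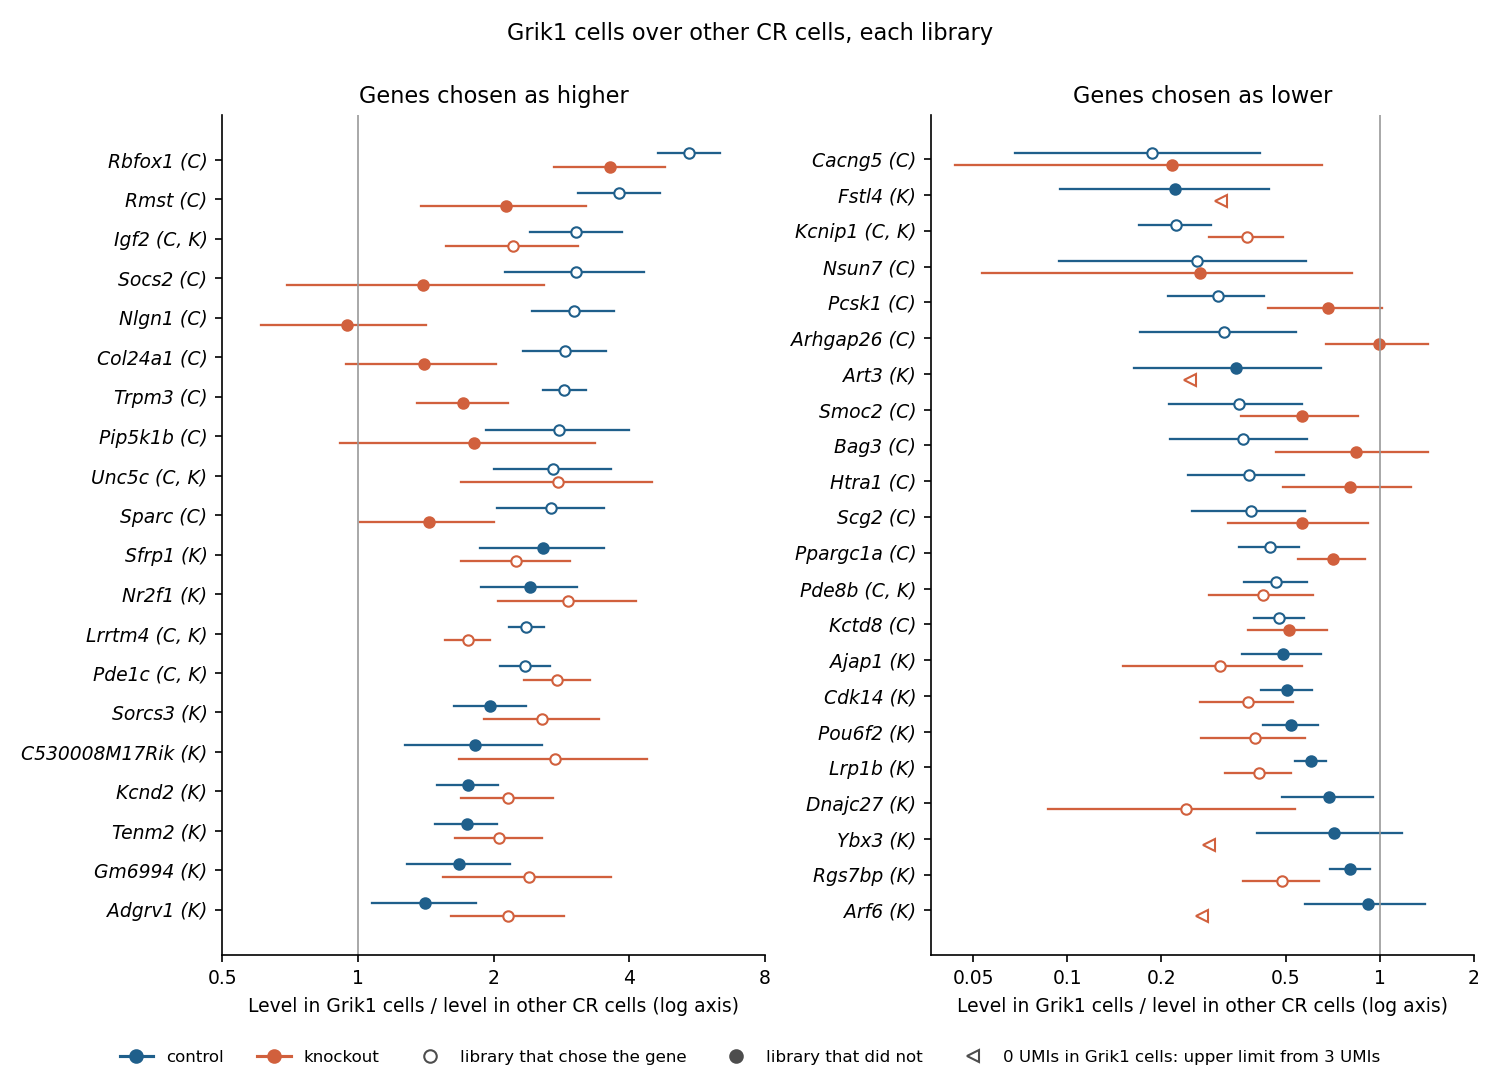
Level in *Grik1* cells over the level in other CR cells for the genes chosen as higher (left) and as lower (right), with 95% intervals on a log axis, in the control (C, blue) and the knockout (K, orange). Open points mark the library that chose the gene and filled points the other one, and triangles are limits for genes with 0 UMIs; of the filled points on the left, *Nlgn1* in the knockout is the one below 1.

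*Rbfox1* ranked first among the higher genes of the control. It encodes a neuronal RNA-binding protein that controls alternative splicing, and stood at 388 CPM in the control *Grik1* cells against 71.6 CPM in the others (5.42, 4.63 to 6.35), and at 241 against 66.6 CPM in the knockout (3.62, 2.72 to 4.81). A UMI was found in 41.1% of control *Grik1* cells against 12.5% of the others, and in 38.8% against 15.7% in the knockout. In the knockout a single cell held 17 of its 83 UMIs, 20.5%, which kept it out of the ranking there, and without that cell the ratio was 2.98 (2.18 to 4.04). *Pde1c*, a calcium-dependent phosphodiesterase gene that degrades cyclic nucleotides, stood at 436 against 186 CPM (2.35, 2.07 to 2.66) and 623 against 225 CPM (2.77, 2.34 to 3.26). It was detected in 71.0% and 75.5% of *Grik1* cells. *Unc5c*, a netrin receptor gene of repulsive axon guidance, stood at 85.7 against 31.6 CPM (2.71, 2.00 to 3.64) and 78.5 against 28.2 CPM (2.79, 1.69 to 4.49). *Nr2f1*, a nuclear receptor gene that patterns the cortex, stood at 123 against 51.3 CPM (2.41, 1.88 to 3.06) and 148 against 50.8 CPM (2.92, 2.04 to 4.14). For each of these genes the intervals lay above 1.5 in both libraries, as they did for the next pair. Without the cell with most UMIs, the knockout interval reached below 1.5 for *Unc5c* (2.45, 1.44 to 4.05) and *Igf2* (1.93, 1.33 to 2.74). *Igf2*, the growth factor gene, stood at 143 against 46.8 CPM (3.05, 2.41 to 3.85) and 148 against 67.2 CPM (2.21, 1.57 to 3.08). *Sfrp1*, which encodes a secreted Wnt antagonist, stood at 76.6 against 29.7 CPM (2.58, 1.87 to 3.51) and 215 against 95.9 CPM (2.25, 1.69 to 2.95).

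Synaptic adhesion genes were also among the chosen. *Lrrtm4*, a postsynaptic organizer that binds neurexins and heparan sulfate, stood at 909 against 384 CPM in the control (2.37, 2.17 to 2.58) and 1114 against 635 CPM in the knockout (1.75, 1.56 to 1.97). Its relative *Lrrtm3* stood at 81.8 against 33.4 CPM (2.45, 1.8 to 3.29) and 96.0 against 41.5 CPM (2.31, 1.49 to 3.51). *Tenm2*, a teneurin gene, was higher at ratios of 1.74 (1.48 to 2.04) and 2.06 (1.64 to 2.57), whereas its relative *Tenm1* was lower, at ratios of 0.406 (0.206 to 0.727) and 0.488 (0.237 to 0.902). *Nlgn1*, the gene of a neuroligin at excitatory synapses, was 3.01-fold (2.44 to 3.70) higher in the control and level in the knockout (0.946, 0.61 to 1.42), where a single cell held 10 of its 28 UMIs and the ratio without it was 0.621. *Nrxn3*, a neurexin gene, likewise stood at 2.03 (1.79 to 2.30) and 0.929 (0.730 to 1.17). Of 23 compared genes of synaptic adhesion, 6 were at least 1.5-fold higher and 1 lower in the control (median 0.21 on the log2 scale), and 3 higher and 1 lower in the knockout (median 0.04). Over all genes compared the shares were 2.91% higher and 6.21% lower in the control and 5.98% and 12% in the knockout, beside which this and the following lists are to be read.

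Other genes were far higher in the control and less so in the knockout. *Trpm3*, a cation channel gene, stood at 626 against 218 CPM (2.87, 2.57 to 3.20) and 285 against 167 CPM (1.71, 1.35 to 2.15). *Rmst*, a long noncoding RNA of neural progenitors, stood at 191 against 50.2 CPM (3.80, 3.07 to 4.68) and 96.0 against 45.1 CPM (2.13, 1.38 to 3.21). For *Col24a1* (a collagen gene), *Socs2* (a suppressor of cytokine signalling) and *Pip5k1b* (a lipid kinase gene) the knockout intervals held 1. The difference between the libraries was not tested for any of these genes. Genes chosen in the knockout with intervals above 1 in the control included *Kcnd2* (A-type potassium channel), at 278 against 158 CPM (1.75, 1.5 to 2.04) and 291 against 135 CPM (2.15, 1.69 to 2.72). *Sorcs3*, a sorting receptor gene, was higher at ratios of 1.97 (1.63 to 2.36) and 2.56 (1.90 to 3.42), and the adhesion receptor gene *Adgrv1* at 1.41 (1.07 to 1.83) and 2.16 (1.61 to 2.87).

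*Kcnip1* was among the lower genes chosen in both libraries. It encodes a calcium-binding protein that attaches to A-type potassium channels, and stood at 79.2 CPM in the control *Grik1* cells against 355 CPM in the others (0.223, 0.17 to 0.288), and at 169 against 449 CPM in the knockout (0.376, 0.283 to 0.491). It was detected in 21.0% against 57.4% of the control cells and 46.9% against 66.3% of those of the knockout. Its relative *Kcnip4* was lower as well, by 0.593 (0.562 to 0.626) and 0.656 (0.604 to 0.713). *Cacng5*, an auxiliary subunit of AMPA-type glutamate receptors, was lower at ratios of 0.187 (0.0679 to 0.414; 6 UMIs in *Grik1* cells) and 0.216 (0.0435 to 0.653; 3 UMIs). *Pde8b*, a cAMP phosphodiesterase gene, stood at 105 against 226 CPM (0.465, 0.367 to 0.583) and 90.2 against 213 CPM (0.423, 0.284 to 0.61). *Kctd8*, an auxiliary subunit of GABA-B receptors, stood at 171 against 359 CPM (0.477, 0.397 to 0.57) and 151 against 296 CPM (0.511, 0.377 to 0.68). *Lrp1b*, a large receptor of the LDL receptor family, stood at 441 against 735 CPM (0.60, 0.536 to 0.671) and 212 against 517 CPM (0.411, 0.319 to 0.521).

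Of 12 compared neuropeptide and granin genes, 3 were at least 1.5-fold higher (*Pnoc*, *Nxph3*, *Igf2*) and 2 lower (*Penk*, *Scg2*) in the control, and the same 3 higher and *Scg2* lower in the knockout. *Scg2*, a granin of dense-core vesicles, stood at 33.8 against 87.2 CPM (0.387, 0.25 to 0.575) in the control and 52.4 against 92.8 CPM (0.564, 0.327 to 0.918) in the knockout. *Pcsk1*, a convertase that cuts prohormones, was lower at a ratio of 0.303 (0.209 to 0.425) in the control, and the knockout interval held 1 (0.681, 0.439 to 1.02). *Pnoc*, the gene of the precursor of nociceptin, was in contrast higher, at 343 against 207 CPM (1.66, 1.44 to 1.90) and 480 against 260 CPM (1.84, 1.54 to 2.20). *Ppargc1a*, a coactivator of mitochondrial biogenesis, was lower at ratios of 0.444 (0.355 to 0.55) and 0.707 (0.549 to 0.90), although the OXPHOS genes had a median share of 0.734% in control *Grik1* cells against 0.750% in the others and 0.812% against 0.798% in the knockout. Those shares were limited by the rule. *Art3*, *Arf6*, *Ybx3* and *Fstl4* had 0 UMIs in the knockout *Grik1* cells and were at least 4.05-fold, 3.70-fold, 3.52-fold and 3.23-fold lower than in the other cells, taking 3 UMIs as the floor. In the control, *Art3* (0.346) and *Fstl4* (0.221) were lower too, while *Ybx3* (0.713) and *Arf6* (0.915) moved less.

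The 2 gene sets were then followed over the number of *Grik1* UMIs, using unmarked cells as the class with none. In the knockout, the 12 genes chosen as higher in the control stood at 1626 CPM in cells with 0 *Grik1* UMIs, 1805 with 1, 3905 with 2 and 3428 with 3 or more. The 12 chosen as lower stood at 1750, 1367, 904 and 838 CPM. In the control, the 12 genes chosen as higher in the knockout stood at 1453, 2490, 2726 and 3054 CPM, and the 12 chosen as lower at 2496, 1806, 1285 and 1022 CPM. Cells with 1 *Grik1* UMI thus lay between unmarked cells and those with more in all 4 series, and nearest the unmarked cells in the first. Depth moved with the class: median UMIs were 5941, 5633.5, 7049.5 and 6874.5 over the classes in the control and 6254.5, 5777, 7644 and 7225 in the knockout, and its part was not tested. Within cells of 4000 to 8000 UMIs, the summed ratio of the genes chosen as higher in the control was 1.71 in the knockout, where all cells gave 1.94.

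**Figure D2:**
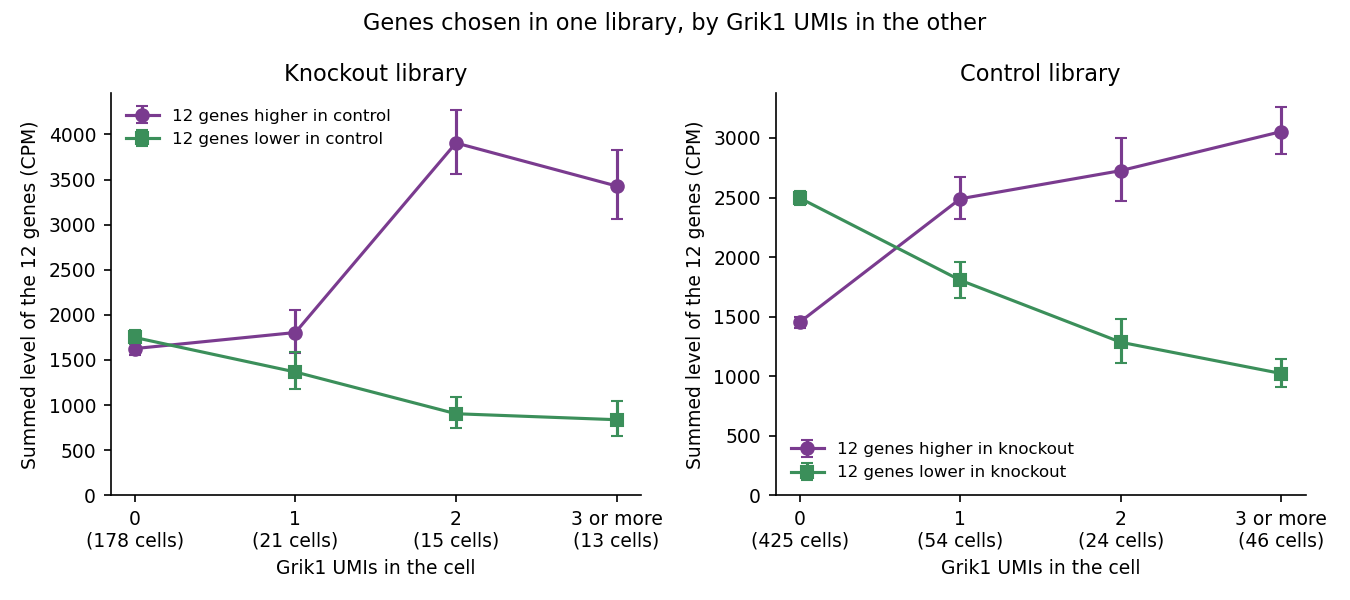
Summed level (CPM) of the 12 genes chosen as higher (purple) and as lower (green) in the other library, over cells with 0, 1, 2 and 3 or more *Grik1* UMIs, with 95% counting intervals and the number of cells under each class. In the knockout (left) the sets are furthest apart at 2 *Grik1* UMIs, 3905 against 904 CPM, and stand at 3428 against 838 CPM at 3 or more; in the control (right) they are furthest apart at 3 or more, 3054 against 1022 CPM.

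Single cells were not separated by these sets. Summed over the genes chosen as higher in the knockout, control *Grik1* cells had a median of 2632 CPM (quartiles 1418 and 3467) and unmarked control cells a median of 1135 CPM (536 and 2074), so the quartile ranges overlapped. In the knockout, the set chosen in the control had a median of 2443 CPM (1290 and 4036) in *Grik1* cells and 1204 CPM (551 and 2448) in unmarked cells. Levels in *Grik1* cells and unmarked cells thus overlapped in both libraries.

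The other CR cells were not of a kind, and *Grik1* cells stood at different distances from each group. The set chosen as higher in the control stood in the knockout at 2982 CPM in *Grik1* cells, 2271 in *Chst8* or *Alkal2* cells, 1626 in unmarked cells and 1138 in *Cck* cells. The set chosen as lower stood at 1062 CPM in *Grik1* cells and 1750, 1959 and 2192 CPM in the unmarked, *Chst8* or *Alkal2* and *Cck* cells. In the control, the sets chosen in the knockout stood at 2761 and 1390 CPM in *Grik1* cells, 1453 and 2496 in unmarked, 1121 and 3191 in *Chst8* or *Alkal2*, and 1131 and 2568 in *Cck* cells. *Grik1* cells were thus at the end of the order in all 4 series. *Rbfox1* and *Kcnip1* had opposite orders: *Rbfox1* was lowest in *Cck* cells (33.4 and 14.3 CPM), and *Kcnip1* was highest there (479 and 627 CPM). Single genes did not all follow the summed order. For *Lrrtm4* in the knockout, *Chst8* or *Alkal2* cells, at 1076 CPM (938 to 1229), could not be told apart from *Grik1* cells, at 1114 CPM (1005 to 1232). The values of *Chst8* or *Alkal2* cells were also above those of *Grik1* cells for *Trpm3*, 417 CPM (332 to 516) against 285 CPM (231 to 347), *Kcnd2*, *Col24a1* and *Nlgn1*, with overlapping intervals for all 4 genes.

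**Figure D3:**
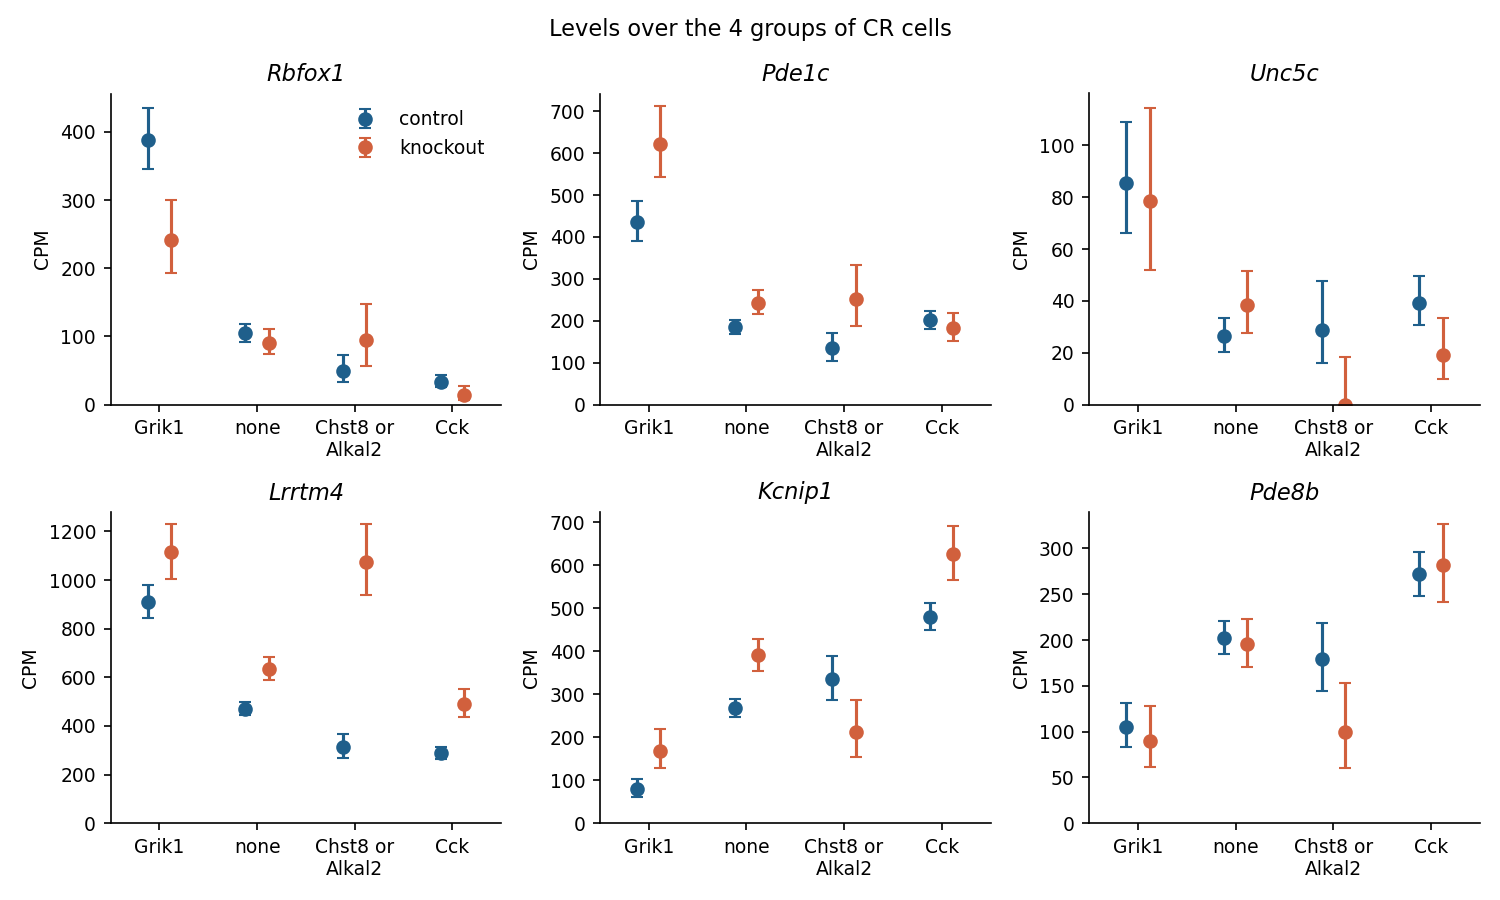
Levels (CPM, linear axes from 0) of 6 genes in *Grik1*, unmarked ("none"), *Chst8* or *Alkal2* and *Cck* cells of the control (blue) and the knockout (orange), with 95% counting intervals. *Rbfox1* stands at 388 and 241 CPM in *Grik1* cells and at or below 104 CPM in the other groups, while *Kcnip1* is lowest in *Grik1* cells at 79.2 and 169 CPM.

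Among the compared genes whose levels followed *Grik1* most closely over the 4 UMI classes of both libraries were *Rbfox1* (r = 0.915), *Ids* (0.915), *Ahi1* (0.911) and *Hmgcs1* (0.903). These are correlations over 8 values that share cells, libraries and depth, and describe the pattern only. *Rbfox1* stood at 104, 206, 428 and 552 CPM over the classes in the control and at 91.0, 92.1, 247 and 446 CPM in the knockout. *Ids*, a lysosomal sulfatase gene, covered a far smaller range, 43.6 to 84.9 CPM in the control.

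Many of the chosen genes are long. On the GRCm38 annotation, *Grik1* spans chromosome 16 from 87895900 to 88290265 on the minus strand and overlaps no other gene. The median gene compared spanned 42.3 kb, and the 12 genes chosen as higher spanned a median of 315 kb (control) and 435 kb (knockout), with 8 of 12 over 100 kb in each, where 23.3% of all genes compared were that long. The lower genes spanned medians of 81.5 and 168 kb, with 6 and 8 of 12 over 100 kb. Summed over all 1455 compared genes above 100 kb, *Grik1* cells stood at 1.03 and 1.04 of the other cells, and over the 781 genes under 10 kb at 0.960 and 0.952. Of the long genes, 4.33% were at least 1.5-fold higher and 6.67% lower in the control, beside 2.91% and 6.21% of all genes, and 6.05% higher and 10.3% lower in the knockout, beside 5.98% and 12%. The nuclear-retained transcripts listed, 6 in all, summed to 0.939 and 0.919 of their level in the other cells, with none past 1.5-fold.

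The other kainate receptor genes did not move together with *Grik1*. *Grik2*, the GluK2 subunit gene, stood at 10.4 against 28.1 CPM in the control (0.370, 0.156 to 0.749; 8 UMIs) and 8.73 against 30.2 CPM in the knockout (0.289, 0.0579 to 0.885; 3 UMIs), lower in the *Grik1* cells of both libraries. *Grik3* had only 4 and 2 UMIs in *Grik1* cells. The high-affinity subunit gene *Grik5* stood at 127 against 143 CPM (0.890, 0.713 to 1.1) and 157 against 144 CPM (1.09, 0.799 to 1.46), and *Grik4* at 22.1 against 20.1 CPM (1.1, 0.615 to 1.85) and 61.1 against 47.2 CPM (1.30, 0.766 to 2.10). Neither could be told apart from the other CR cells. *Neto1* was lower in the control, at 11.7 against 31.6 CPM (0.370, 0.166 to 0.721), and level in the knockout, at 43.6 against 43.1 CPM (1.01, 0.543 to 1.77), where a single cell held 6 of its 15 UMIs and the ratio without it was 0.629. *Neto2* stood at 9.09 against 12.7 CPM and 8.73 against 19.5 CPM, on too few UMIs to tell.

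Metabotropic glutamate receptors, which signal through G proteins, were higher as a list. They summed to 249 against 148 CPM in the control (1.69, 1.43 to 1.98) and 256 against 171 CPM in the knockout (1.5, 1.17 to 1.90). Of the inhibitory group II genes, *Grm2* stood at 104 against 47.0 CPM (2.21, 1.69 to 2.86) and 102 against 56.4 CPM (1.81, 1.20 to 2.66), and *Grm3* at 66.2 against 43.7 CPM (1.52, 1.09 to 2.07) and 69.8 against 47.7 CPM (1.46, 0.894 to 2.31). In knockout cells of 4000 to 8000 UMIs the *Grm2* ratio was 0.693, from 8 UMIs in *Grik1* cells. The group III gene *Grm8* was the opposite, at 3.89 against 21.3 CPM (0.183, 0.0371 to 0.549) and 8.73 against 21.5 CPM (0.405, 0.0804 to 1.27), with 3 UMIs in each library.

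Among AMPA receptor genes, which carry fast excitation, *Gria4* was higher in both libraries and past 1.5-fold in the knockout. It stood at 1273 against 1011 CPM (1.26, 1.17 to 1.35) and 1586 against 1050 CPM (1.51, 1.37 to 1.66). In the knockout a single cell held 66 of its 545 UMIs, and without that cell the ratio was 1.39 (1.25 to 1.53). *Gria1* stood at 798 against 904 CPM (0.883, 0.810 to 0.961) and 817 against 875 CPM (0.934, 0.820 to 1.06), and *Gria2* at 0.933 (0.863 to 1.01) and 0.932 (0.830 to 1.05). *Gria3* had 0 and 1 UMI in *Grik1* cells. *Grin1*, the obligatory NMDA receptor subunit gene, stood at 253 against 246 CPM (1.03, 0.879 to 1.20) in the control and 201 against 281 CPM (0.713, 0.547 to 0.917) in the knockout.

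**Figure D4:**
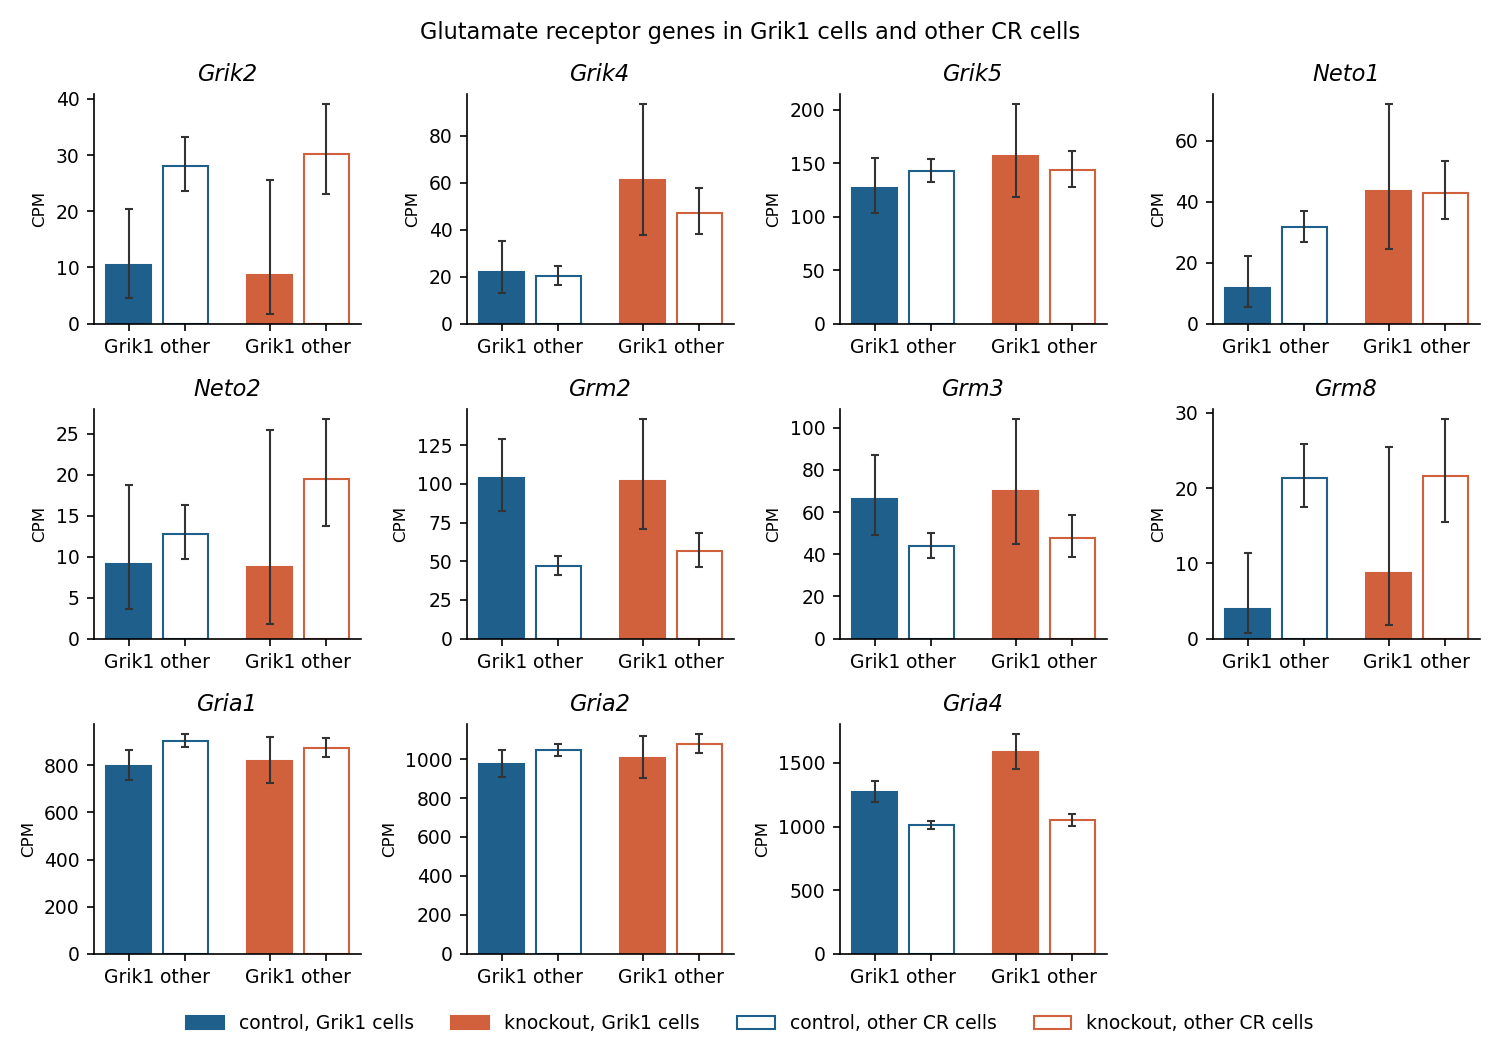
Levels (CPM, axes from 0) of 11 glutamate receptor and auxiliary genes in *Grik1* cells (filled bars) and other CR cells (open bars) of the control (blue) and the knockout (orange), with 95% counting intervals. *Grm2* stands at 104 and 102 CPM in *Grik1* cells over 47.0 and 56.4 CPM in the others, and *Grik2* at 10.4 and 8.73 CPM under 28.1 and 30.2 CPM.

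Inhibitory signalling genes showed a mixed picture. Of 6 compared GABA-A receptor genes, *Gabrg3* was lower at 227 against 373 CPM (0.609, 0.518 to 0.711) and 236 against 327 CPM (0.722, 0.565 to 0.910), though against the *Cck* cells of the knockout alone it stood at 1.14. *Gabrb1* was lower at ratios of 0.275 (0.0554 to 0.839; 3 UMIs) and 0.497 (0.251 to 0.897), and *Gabra2* higher at ratios of 1.41 (1.13 to 1.75) and 1.82 (1.35 to 2.41). Of 30 compared potassium channel genes and their partners, 1 was at least 1.5-fold higher (*Kcnd2*) and 8 lower in the control (median −0.20 on the log2 scale), among them *Kcnip1*, *Kcnip4* and the delayed-rectifier gene *Kcna6*, which stood at 0.660 (0.457 to 0.927) and 0.349 (0.148 to 0.709). In the knockout 2 were higher and 6 lower (median −0.02), where 5.98% and 12% of all genes were, against 2.91% and 6.21% in the control. Sodium, calcium and HCN channel genes moved little, with 1 higher and 1 lower of 18 in the control and none in the knockout.

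Adhesion and guidance genes differed by member. Contactins and the L1 family, with their partners, summed to 1.28 (1.26 to 1.30) and 1.28 (1.25 to 1.31) of the level in other cells, most of it *Cntnap2*, a neurexin-related gene that stood at 1.32 (1.29 to 1.35) and 1.39 (1.35 to 1.43). Of 31 compared axon guidance genes, 3 were at least 1.5-fold higher in the control (*Slit2*, *Unc5c*, *Dcc*) and 3 lower (*Sema5a*, *Plxna2*, *Plxna4*). In the knockout 4 were higher and 4 lower, the latter near the 12% of all genes. The other shares of all genes were 5.98% higher in the knockout, and 2.91% higher and 6.21% lower in the control. *Dcc*, the attractive netrin receptor, was higher at ratios of 1.51 (1.43 to 1.59) and 1.41 (1.30 to 1.53). *Plxna4*, a semaphorin receptor gene, was lower at ratios of 0.665 (0.547 to 0.802) and 0.585 (0.411 to 0.811).

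Of 15 compared transcription factor genes of CR cells, *Nr2f1* was past 1.5-fold higher and *Ebf1*, a factor of early neuronal differentiation, past it lower in both libraries, the latter at ratios of 0.587 (0.405 to 0.827) and 0.315 (0.142 to 0.613). *Zic1* was also lower in the control and *Barhl2* higher in the knockout. *Slc17a6*, the vesicular glutamate transporter of CR cells, stood at 591 against 506 CPM (1.17, 1.05 to 1.29) and 535 against 443 CPM (1.21, 1.02 to 1.42). Of 3 compared neurotrophin genes, *Ntrk3*, the receptor of neurotrophin-3, had 3 UMIs in the control *Grik1* cells, 3.89 against 40.6 CPM (0.0959, 0.0196 to 0.284), and 0 in the knockout, at least 1.64-fold lower. Of 10 compared genes of cell death, *Bcl2l11*, which encodes the pro-apoptotic protein BIM, was lower in both libraries, at 10.4 against 36.9 CPM (0.281, 0.12 to 0.566) and 11.6 against 37.9 CPM (0.307, 0.081 to 0.819). *Bcl2l1* and *Trp53* were past 1.5-fold higher in the knockout.

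Immediate early genes, which respond to activity and to dissociation, summed to 0.947 (control) and 0.872 (knockout, 0.803 to 0.945) of their level in the other cells. Of 15 compared, *Egr1* and *Ier5* were past 1.5-fold higher and *Nr4a3* lower in the control, whereas *Jun*, *Egr1* and *Ier5* were lower in the knockout. *Egr1* stood at 138 against 69.3 CPM in the control (1.98, 1.58 to 2.48) and 17.5 against 27.7 CPM in the knockout (0.631, 0.222 to 1.46), so its interval in the knockout held 1. Of 12 compared genes of immature neurons, 1 was past 1.5-fold higher in each library (*Tubb3*, *Tubb2b*). Only *Unc13b* of 30 vesicle release genes was past it in the control, and 5 were lower in the knockout, where 12% of all genes were. The 1 monoamine or acetylcholine receptor gene compared, *Htr1f*, was within 1.5-fold in both.

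The same *Grik1* cells were then compared between genotypes, beside the same ratio in other CR cells. *Cic* itself stood at 50.6 CPM in control and 55.3 CPM in knockout *Grik1* cells (1.09, 0.60 to 1.94), and at 0.88 (0.70 to 1.12) in the others. The sources used here do not give which exons are deleted, so these 3′ tags may lie outside the deleted part and do not check the labels. Because the paper reports incomplete loss of CIC in this line, the knockout cells may include some that kept it. Which cells did was not tested, so the ratios below are those of the library, not of cells known to lack CIC. Among the 5752 compared genes with at least 30 UMIs in the *Grik1* cells of both libraries together, 502 (8.73%) were at least 1.5-fold higher and 673 (11.7%) at least 1.5-fold lower in the knockout *Grik1* cells. The median gene stood at −0.02 on the log2 scale.

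*Etv4*, *Etv5*, *Vgf* and *Fgfr1*, always named for their place in CIC and ERK signalling, were higher in the knockout *Grik1* cells as in the others. *Etv4*, an ETS factor gene repressed by CIC, had 32 UMIs in the knockout and 1 in the control *Grik1* cells (71.7, 12 to 2920), and a ratio of 27.9 (15.5 to 55.4) in the others. *Etv5*, its relative, had 22 and 4 UMIs (12.3, 4.19 to 49.2), against 4.41 (3.34 to 5.87). *Vgf*, a neuropeptide precursor gene, stood at 16.9 and 87.3 CPM (5.17, 2.62 to 10.8; a single cell held 6 of the 13 control UMIs), against 3.43 (2.58 to 4.58), and *Fgfr1*, a fibroblast growth factor receptor gene, had 12 and 2 UMIs (13.4, 2.99 to 124), against 4.10 (2.71 to 6.27). The listed genes of CIC and ERK signalling summed to 310 CPM in control and 564 CPM in knockout *Grik1* cells (1.82, 1.5 to 2.21). The same sum stood at 1.79 (1.65 to 1.93) in the others. *Etv4*, *Etv5* and *Vgf* are part of it, so the sum is not separate from their values above. In *Grik1* cells, *Etv4* went from 1.30 CPM in the control to 93.1 CPM in the knockout, and *Etv5* from 5.19 to 64.0 CPM. Of 4 compared members, *Spred1* and *Vgf* were past 1.5-fold higher and *Spry2* past it lower, beside 8.73% and 11.7% of all genes. For *Etv4*, *Etv5*, *Vgf* and *Fgfr1* the intervals of *Grik1* cells and other cells overlapped, and the difference between the groups was not tested.

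*Fgf1* and 2 noncoding neighbours had no UMI in the control *Grik1* cells. *9630014M24Rik* had 56 UMIs in the knockout and 0 in the control *Grik1* cells (at least 41.8-fold higher), with 166-fold (55.9 to 811) in the others. *Fgf1*, the acidic fibroblast growth factor gene, had 26 and 0 UMIs (at least 19.4-fold), and 11.6-fold (6.67 to 21.3) in the others, and *Gm5820* 19 and 0 UMIs (at least 14.2-fold), and 50.6-fold (19.0 to 190). *Arhgap26*, the next protein-coding gene, whose counted entry starts past the ends of these 3, stood at 18.2 and 102 CPM (5.60, 2.94 to 11.3), against 1.79 (1.48 to 2.15) in the others. The control *Grik1* cells began lower, with *Arhgap26* at 0.316 (0.171 to 0.540) of the other control cells, and in the knockout the groups were level (0.993, 0.673 to 1.43). *Fgf1* and *Gm5820* overlap on opposite strands, and without a stated strand their reads cannot be told apart with certainty. Another annotated entry of *Arhgap26* overlaps *Fgf1*, *Gm5820*, *9630014M24Rik* and the counted entry of *Arhgap26*. The UMIs of all these genes are therefore uncertain, and their ratios may not be independent of each other.

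Other genes named by rank were higher in the knockout *Grik1* cells as well. *Shisal2b* stood at 132 and 428 CPM (3.23, 2.49 to 4.20), against 2.13 (1.92 to 2.37) in the others, and *Sfrp1* at 2.81 (1.97 to 4.03), against 3.22. *Camk1d*, a calcium-dependent kinase gene, stood at 639 and 1251 CPM (1.96, 1.72 to 2.23), against 1.97. *Calb2* stood at 36.3 and 119 CPM (3.28, 1.98 to 5.51), against 1.31 (1.07 to 1.59), and *Mtch2*, a mitochondrial carrier homolog gene, at 2.92 (1.81 to 4.74), against 1.11 (0.893 to 1.38). For *Arhgap26*, *Shisal2b*, *Calb2* and *Mtch2* the intervals of *Grik1* cells and other cells did not overlap, and the difference itself was not tested. These genes were ranked on their ratio in *Grik1* cells, which favours a higher value there than in the others. The gap between the groups is therefore a description only. A single cell held 8 of the 43 *Mtch2* UMIs in the knockout *Grik1* cells. *Xist*, at 2.11 and 1.90 in the 2 groups, moved with the number of females in the pools.

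Lower in the knockout *Grik1* cells were *Trpm3* (0.456, 0.363 to 0.567, against 0.764 in the others), *Lrp1b* (0.481 against 0.704) and *Car8* (0.334 against 0.640). *Abtb2* (0.291), *Ago1* (0.314) and *Gm31763* (0.280) were lower in *Grik1* cells and stood at 0.829, 0.928 and 0.971 in the others. Every gene so far in this paragraph was ranked on its ratio in *Grik1* cells, which favours a lower value there than in the others. *Rbfox1*, ranked first among the higher genes of the control, stood at 0.622 (0.482 to 0.796) of its control level, against 0.931 in the others. *Egr1* stood at 0.127 (0.046 to 0.285), against 0.399. Of the survival genes, *Bcl2* had a ratio of 2.05 (0.82 to 5.09) in *Grik1* cells and 0.906 in the others, and the pro-apoptotic *Bax* 0.910 (0.439 to 1.78) and 1.02, so neither could be told apart from no change. The kainate subunit gene *Grik4* was higher in both, at ratios of 2.77 (1.39 to 5.59) and 2.35 (1.75 to 3.15).

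**Figure D5:**
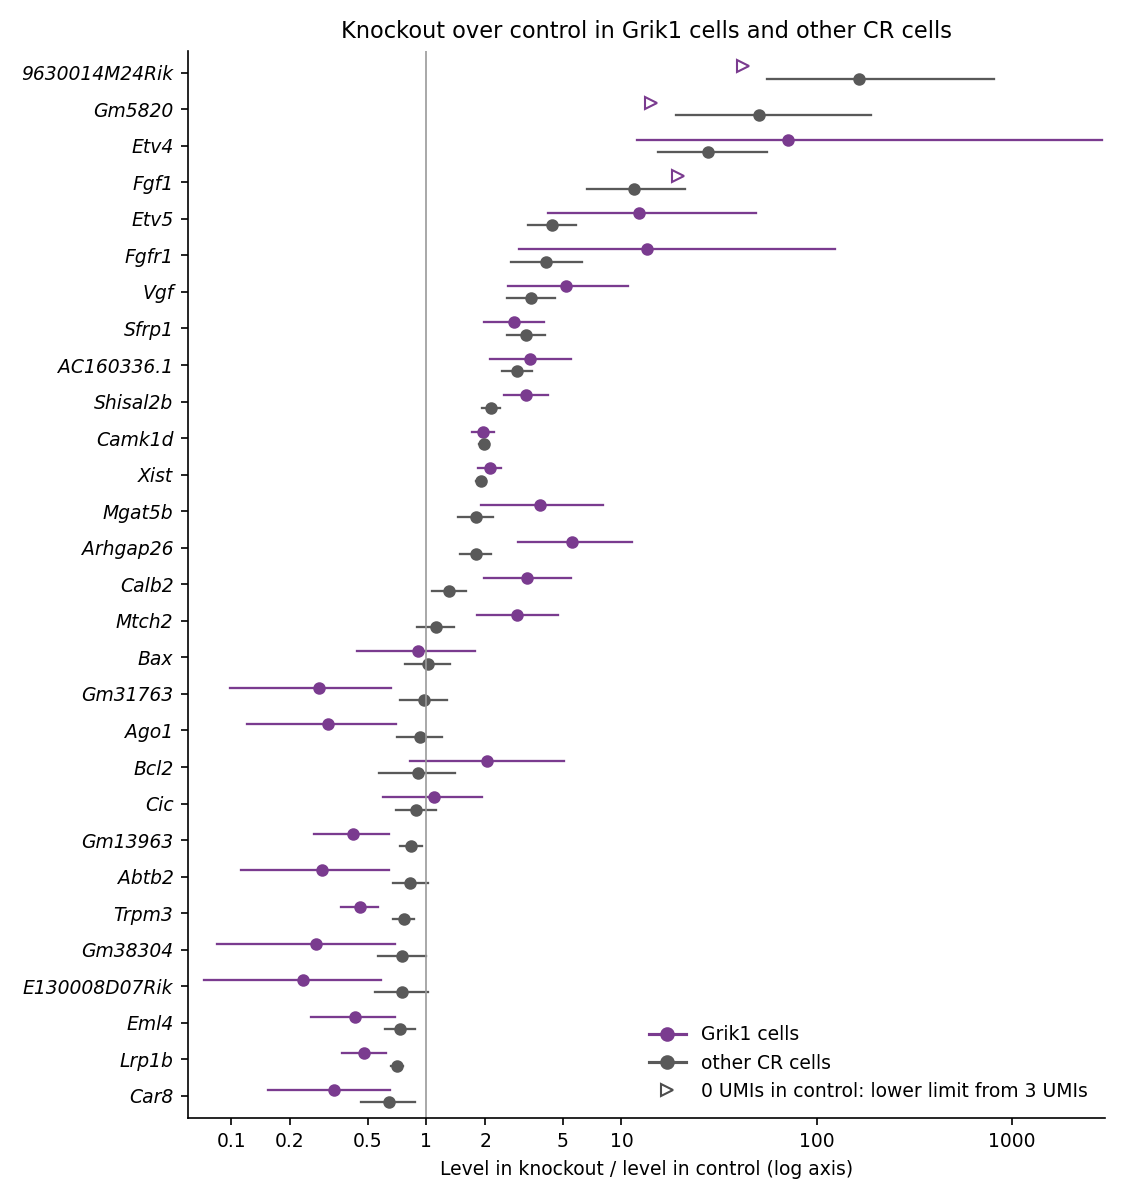
Level in the knockout over the level in the control, on a log axis with 95% counting intervals, in *Grik1* cells (purple) and other CR cells (grey), for the genes named by rank and those always named; triangles are lower limits for genes with 0 UMIs in the control *Grik1* cells. *Etv4*, *Etv5*, *Fgf1* and *Vgf* lie right of 1 in both groups, while *Mtch2* (2.92 against 1.11) and *Calb2* (3.28 against 1.31) lie further right in *Grik1* cells. Genes named by rank were chosen on their ratio in *Grik1* cells, which favours a larger change there.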

How the data were processed

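The authors deposited raw UMI counts per gene and barcode for all barcodes of both 10x 3′ v3.1 libraries, 32285 genes, without normalization or cell calling. The submitters' processing notes name Cell Ranger 8.0.1 and mm39. The file headers and the methods name other Cell Ranger versions, and the methods mm10. Neither the treatment of introns nor the strand counted is stated, and wherever genes overlap, their UMIs are uncertain. Intronic reads would raise long genes.

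The matrices held 16336796 (control) and 6777071 (knockout) UMIs, with 1011 and 406 barcodes of at least 2000 UMIs and 0 barcodes shared between the CR cells. *Grik1* cells held 770352 and 343736 UMIs outside mitochondrial and ribosomal (mt-, Rpl, Rps, Mrp) genes, and other CR cells 4876157 and 1950663. Scrublet (scanpy 1.11.5) called 8 and 1 doublets, none of them *Grik1* cells; they were kept. Cells were summed in Python 3.11.15 with numpy 2.4.6, scipy 1.17.1 and pandas 2.3.3.

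Genes were compared with at least 200 UMIs over all CR cells, leaving out those that chose the cells. Genes with over 20% of their UMIs on a side in 1 barcode were counted but not ranked. Named were the 12 highest and 12 lowest of each library by the 95% bound nearer to 1, the 10 highest and 10 lowest between genotypes, a fixed list of glutamate receptor and CIC-related genes, and 5 genes most like *Grik1*. Other members of the lists were named after their values were seen. A ratio against 0 UMIs was taken against 3 UMIs over the group. The cells, gene lists and alternatives were chosen with earlier results of these data known. The steps were tested on simulated data. Cells of a library are not replicates, so no test was run. Positions come from GENCODE M21 on GRCm38, and no sequences were used. Values of some genes named by these rules are not reported here.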

Additional observations from a re-analysis of the deposited data

Results flagged for a closer look

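*Calb2*, the calretinin gene, differed from the other CR cells in opposite directions in the 2 libraries: *Grik1* cells stood at 0.605 of the others in the control (36.3 against 60.1 CPM) and at 1.52 in the knockout (119 against 78.4 CPM). The difference between the libraries was not tested. The knockout value turned to 0.659 without the OXPHOS limit and to 0.999 against *Cck* cells. With all cells its interval was 1.05 to 2.16. Without the knockout *Grik1* cell with most *Calb2* UMIs, which held 5 of 41, the ratio was 1.36 (0.918 to 1.97), so the interval held 1.

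*Grik1* was also found among barcodes left out by the OXPHOS limit. It had a UMI in 21.5% (13.1 to 32.2) of 79 such barcodes in the control and in 12.9% (3.63 to 29.8) of 31 in the knockout. These barcodes were deep, with medians of 13686 and 14508 UMIs, which raises the share with a UMI. Per UMI, *Grik1* stood in them at 58.0 CPM in the control, above the 23.4 CPM of droplets without cells, and at 9.55 CPM (4 UMIs) in the knockout, below the 58.9 CPM of the droplets.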

How the results depend on the processing

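Requiring 2 *Grik1* UMIs gave shares of 7.64% and 8.02%, no *Cck* limit 17.7% in the control, and thinning to 2000 UMIs 8.84% and 9.74%. The summed ratio in the knockout of the genes higher in the control was 2.40 with 2 *Grik1* UMIs, 1.71 in cells of 4000 to 8000 UMIs and 2.62 against *Cck* cells; that of the lower genes was 0.457, 0.650 and 0.484, and 0.628 without the *Cck* limit. In the control, the genes higher in the knockout gave 2.30 with 2 *Grik1* UMIs, 1.90 against unmarked cells and 2.44 against *Cck* cells, and the lower genes 0.424 with 2 *Grik1* UMIs. All 16 settings kept the direction of the 4 sums. Genes at least 1.5-fold higher and lower numbered 53 and 107 (control), 82 and 169 (knockout) and 148 and 212 (knockout over control) at 500 UMIs or more. With no filter beyond 1 UMI on each side they numbered 2715 and 2111, 2649 and 2288, and 2796 and 2188, so higher genes then outnumbered lower ones, where fewer were higher at 200 UMIs. Reversals occurred in single genes of the knockout: *Gabrg3* (1.14) and *Calb2* (0.999) against *Cck* cells, *Calb2* without the OXPHOS limit (0.659), and, in cells of 4000 to 8000 UMIs, *Grm2* (0.693) and *Pcp4* between genotypes (1.02). The cause was not tested. Of the values of single genes under the alternatives, 2867 moved by less than their interval and 105 by more between *Grik1* and other cells, and 756 and 26 between genotypes. Leaving out the *Grik1* cell with most UMIs of a gene was an alternative chosen after seeing the data. It was run for *Grik1* over other cells only, for genes named by rank and those of the fixed list. Each of their ratios that could be computed stayed within its interval, though some fell below 1.5-fold or had an interval that then held 1.

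No paired analysis was possible because each genotype has 1 library. Genes with few UMIs in the 49 knockout *Grik1* cells are limited by counting, and the intervals do not cover variation between animals.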
